A study of Mus musculus with 24 samples.

Results

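Integrins and laminins were followed across 12 groups, 9 of cultured mouse stem cells and 3 of tissue from early embryos, measured on 24 single-colour Agilent arrays. The genes were chosen by name: every gene whose symbol is Itga or Itgb followed by a number or a single letter, or Lama, Lamb or Lamc followed by a number. This gave 33 of 20616 named genes with a usable probe, namely 15 integrin alpha chains, 8 integrin beta chains and 10 laminin chains. Lamc3 also met the rule, but its 1 probe carried a flagged value on 1 array and it was not tested. Itga10 and Itgae met it too and had no named probe here.

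Each group had 2 arrays. Lines of the primed state, called epiblast stem cells (EpiSCs), come from the epiblast of the implanted embryo, whereas lines of the naive state, called mouse embryonic stem cells (mESCs), come from the blastocyst. Among the EpiSCs, derivation of Wt1 and 129C1 followed the original protocol, and that of 129Ba1, 129Ba2 and BNa17 used a Wnt inhibitor that the labels do not name. Line 129C1 was also measured after IWP2, a small molecule that blocks the acyltransferase Porcn and so the release of Wnt proteins. For mESCs there were 3 groups: J1, R1, and J1 kept in 2i, a pair of inhibitors of Mek and Gsk3. All cultured groups were kept on feeder cells, from which they were separated before RNA extraction. Embryos were dissected by hand to give the E5.5 epiblast, the E6.5 epiblast and, at E7.5, the embryonic ectoderm. The labels give no dose, duration, strain or number of embryos, and each line is 1 isolate. They do not say whether the 2 replicates of a group came from separate cultures or dissections, so p-values between groups of arrays may measure technical spread only.

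Integrins are cell surface receptors made of 1 alpha and 1 beta chain that bind proteins of the extracellular matrix and link them, through talin, kindlin and other adaptors, to the actin cytoskeleton. Laminins are secreted trimers of an alpha, a beta and a gamma chain and form the main sheet of basement membranes, on which the epiblast rests and becomes a polarised epithelium. The alpha chain of an integrin sets much of its choice of ligand: the products of Itga3, Itga6 and Itga7 bind laminins, those of Itga5, Itga8 and Itgav bind proteins with an RGD motif such as fibronectin and vitronectin, and those of Itga1, Itga2, Itga10 and Itga11 bind collagens.

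Levels are given as log2 of the processed signal divided by the array's 75th percentile, so that 0 is the signal of a probe at that percentile. They compare groups for 1 probe and say nothing about which of 2 genes is more abundant. The 75th percentile ranged from 69.3 to 253 over the arrays, 36.7% to 53.2% of probes were well above background, and replicate arrays correlated at r of 0.966 to 0.989. Of the 33 genes, 29 were tested in every comparison, since some group in each fit had both of its arrays well above background. The collagen receptor chain Itga2, the leukocyte chains Itgad and Itgax, and Itgb6, a partner of alpha v in epithelia, were well above background on 0 of 24 arrays. The number of chains well above background on both arrays of a group ran from 17 at E5.5 to 28 in 129Ba1. Marker genes were set against the labels. The summed level of 6 naive pluripotency genes was 946 to 1640 on mESC arrays and 1.03 to 3.79 on EpiSC arrays, and all 5 genes of general pluripotency were well above background on every array of a cultured line and of E5.5 and E6.5.

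**Figure D1:**
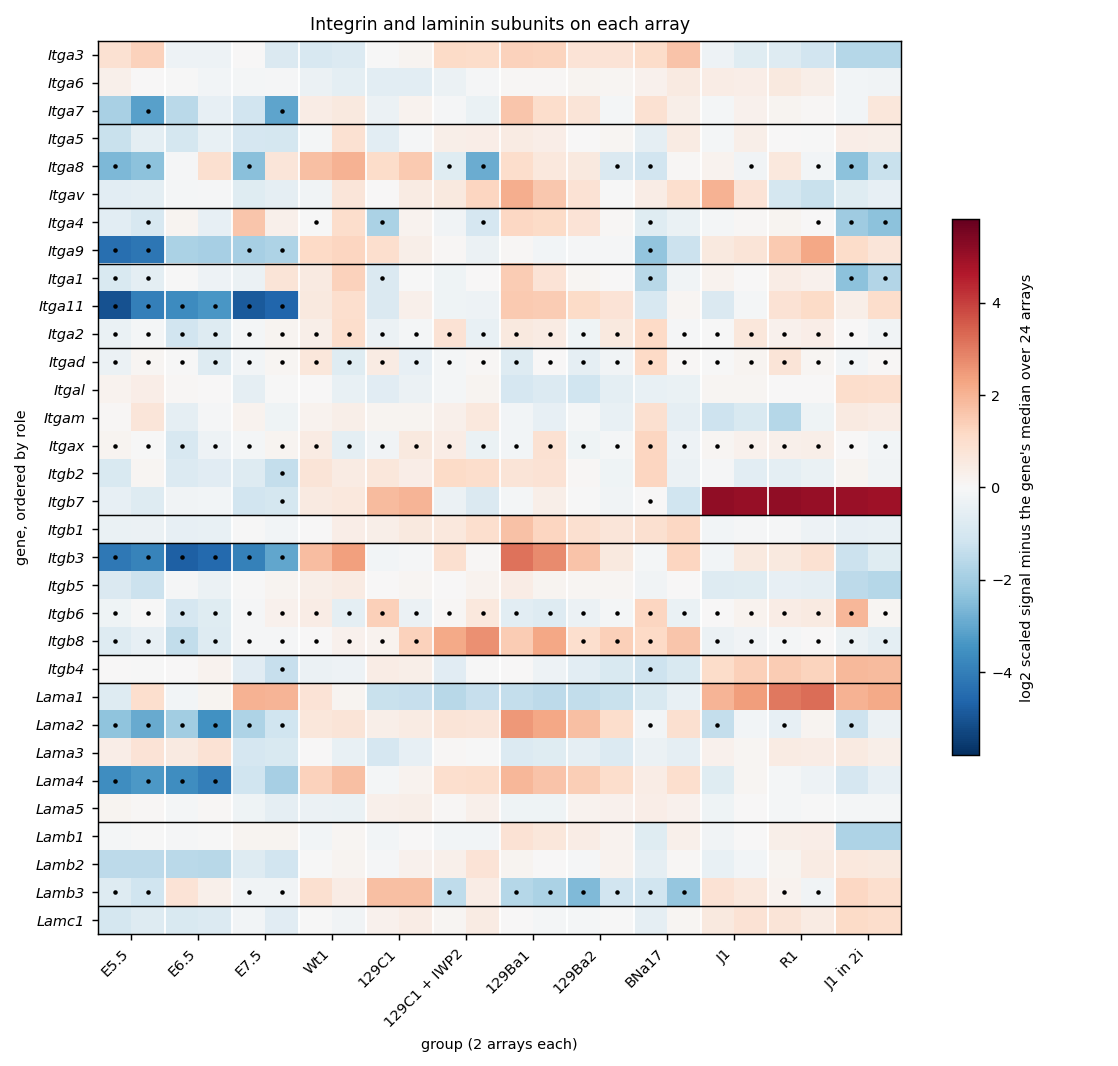
Log2 scaled signal of 32 of the 33 integrin and laminin genes (rows, ordered by role and separated by black lines) on each of the 24 arrays (columns, 2 per group), as the difference from the gene's own median over all arrays; black dots mark values not well above background. Itgb7 stands out on the 6 mESC arrays, and Itgb3, Itga11, Lama2 and Lama4 are low on embryonic arrays, where most of their values carry a dot.

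Of the 33 chains, 14 were well above background on all 24 arrays, and a few of these varied little over the 12 groups. Itga6, the laminin receptor chain that pairs with Itgb1 or Itgb4, lay between 4.48 and 5.67 over all 24 arrays, a range of 1.2. Lama5, the alpha chain of the laminins most epithelia rest on, had a range of 0.87, from 4.40 to 5.27. Neither gene was called in any of the 10 comparisons. Lamb1, the beta chain of the early embryonic laminins, lay at 3.75 to 5.26 on all arrays but those of J1 in 2i, where both values were 2.65. Lamc1, the gamma chain common to most laminins, ran from 2.88 at E5.5 to 5.01 in J1 in 2i. Itgb1, the beta chain shared by most matrix-binding integrins, was between 1.64 and 2.09 on every embryonic and mESC array and between 2.17 and 3.82 on every EpiSC array. Itgb5, a partner of alpha v, was between 2.48 and 4.61. These 6 belong to the 14 chains, with Itga3, Itga5, Itgav, Itgal, Itgam, Lama1, Lama3 and Lamb2 as the others. This holds for the 1 probe used per gene. Other probes of Itgam were well above background on 14 and 12 arrays, and those of Itgav, Itgal and Lama3 on 23, 8 and 9.

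**Figure D2:**
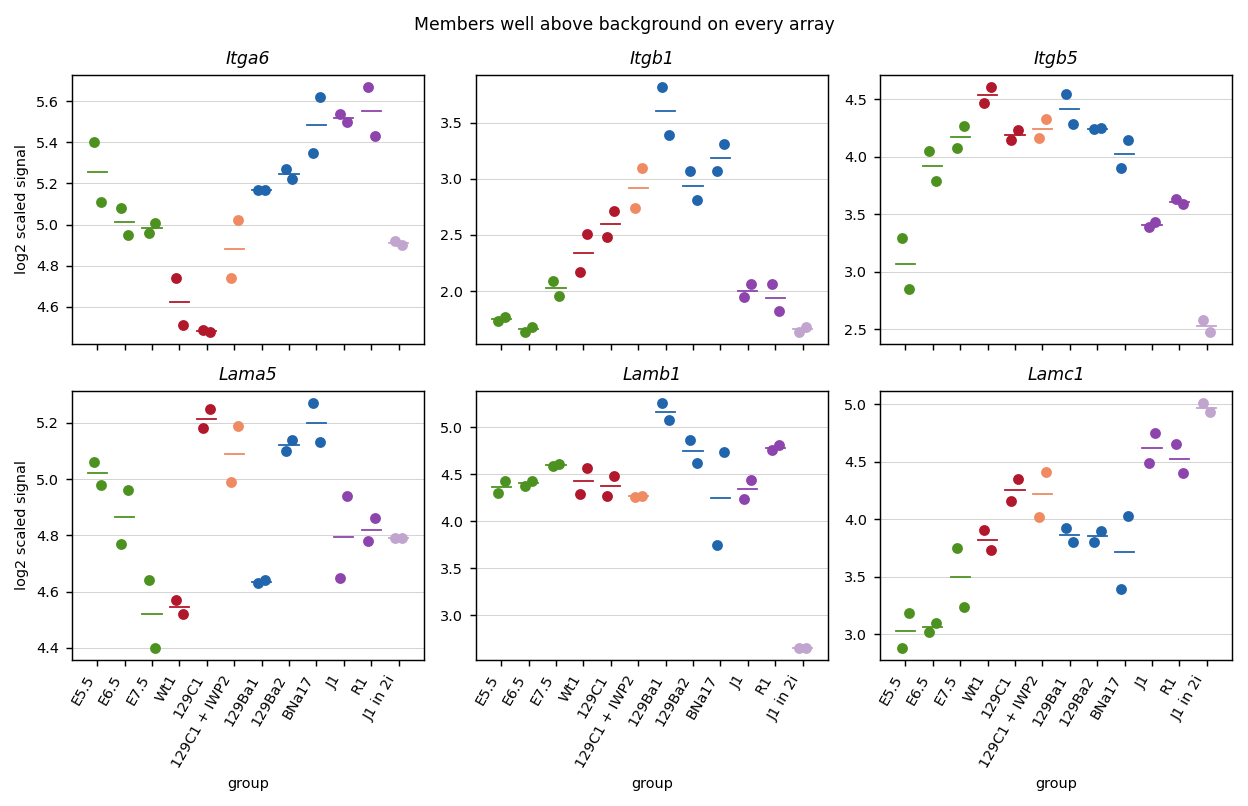
Log2 scaled signal of 6 genes by group (points are single arrays, bars are means of 2 arrays; filled points are well above background); each panel has its own vertical scale. Itga6 and Lama5 vary least, Lamb1 drops to 2.65 in J1 in 2i, and the EpiSC values of Itgb1 lie above all embryonic and mESC values.

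The difference between EpiSC and mESC lines was tested with the 5 EpiSC lines and the 2 mESC lines as replicates. A gene was called when limma gave a Benjamini-Hochberg adjusted p below 0.05 over all tested genes and the difference was at least 2-fold, two-sided. Of the 29 chains, 1 was called higher and 3 lower in EpiSCs, with a median log2 difference of 0.11. Over all 14439 genes tested 25.0% were called, 12.9% higher and 12.1% lower, with a median of -0.01, so the members' share of 13.8% was below the background.

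Itgb7, the beta chain known from the gut-homing and mucosal integrins of lymphocytes, differed most between these states. Its values were 3.24 and 3.14 in J1, 3.23 and 3.12 in R1, and 3.07 and 2.98 in J1 in 2i. In the EpiSC lines they were -1.40 and -1.29 in Wt1, -0.06 and 0.04 in 129C1, -2.01 and -1.58 in 129Ba1, -1.93 and -2.13 in 129Ba2, and -1.90 and -3.07 in BNa17. No EpiSC array reached the mESC values, and those of 129C1 came closest. The difference was -4.72 ± 0.60 (log2, ± standard error), a 26.3-fold lower signal in EpiSCs (adjusted p = 0.00142, limma). Lama1, an early embryonic laminin alpha chain and a main product of parietal endoderm, was 2.67 and 3.14 in J1 and 3.77 and 3.92 in R1. In EpiSCs it ran from -0.84 to 1.5, and the highest line was Wt1 with 1.5 and 0.88. It differed by -3.54 ± 0.56, or 11.6-fold (adjusted p = 0.00347, limma). Both calls held in each of 31 alternative settings.

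Itgb4, which pairs with Itga6 at hemidesmosomes, was also lower in EpiSCs by -1.67 ± 0.37 (adjusted p = 0.0124, limma), with EpiSC values from -3.18 to -1.57 and mESC values from -0.92 to -0.52 on their arrays. Without either mESC line the value was -1.75 to -1.59 and the call was lost. Itgam, a myeloid chain, was higher in EpiSCs by 1.01 ± 0.22 (adjusted p = 0.0124, limma). That call was lost when any of 11 of 21 arrays or lines was left out, with values of 0.66 to 1.06. The probe used for Itgam had a mean level of 3.3 over the arrays. Its other probes, with means of -3.07 and -3.1, differed by 0.61 and 0.63 and were well above background on 0 mESC arrays. With the mean of all probes Itgam differed by 0.75 and was not called. With normexp background correction only Itgb7 and Lama1 were called. Itgb1 differed by 0.96 ± 0.34 and did not pass (adjusted p = 0.0591, limma). Itga3, Itga6, Itga5, Itgav, Lama5 and Lamb1 differed by 1.25 ± 0.60, -0.53 ± 0.30, 0.05 ± 0.24, 0.56 ± 0.71, 0.14 ± 0.25 and 0.03 ± 0.29 and did not pass. The second probes of Itgav and Itgb1 differed by more, 1.95 and 1.52, and were not tested alone. Both were well above background on 10 EpiSC arrays, and on 3 and 4 mESC arrays, in that order. Lamc1 was below the fold minimum at -0.68 ± 0.19 (adjusted p = 0.0298, limma). The EpiSC and mESC arrays were on different slides, so slide and cell state cannot be told apart.

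Among the partners of these chains, 7 of 23 tested adaptor and signalling genes were called, 4 higher and 3 lower in EpiSCs. Src, a kinase at focal adhesions, was higher by 2.49 ± 0.28 and was well above background on 0 of 4 mESC arrays (at least 2.35-fold, adjusted p = 0.000846, limma). Such a bound sets the mean of the brighter side against the lowest signal called well above background on each dim array. Ilk, the integrin-linked kinase, was higher by 1.42 ± 0.15, and Tns3, a tensin, was lower by -2.53 ± 0.32. Of 12 other laminin receptors and hemidesmosome partners 1 was higher and 2 were lower, with the tetraspanin Cd9, an integrin partner, at -1.99 ± 0.16. Of 13 other matrix genes 1 was higher (Col4a1, a basement membrane collagen, 1.54 ± 0.44) and 1 lower (Nid2, which bridges laminin to collagen IV, -1.62 ± 0.16).

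**Figure D3:**
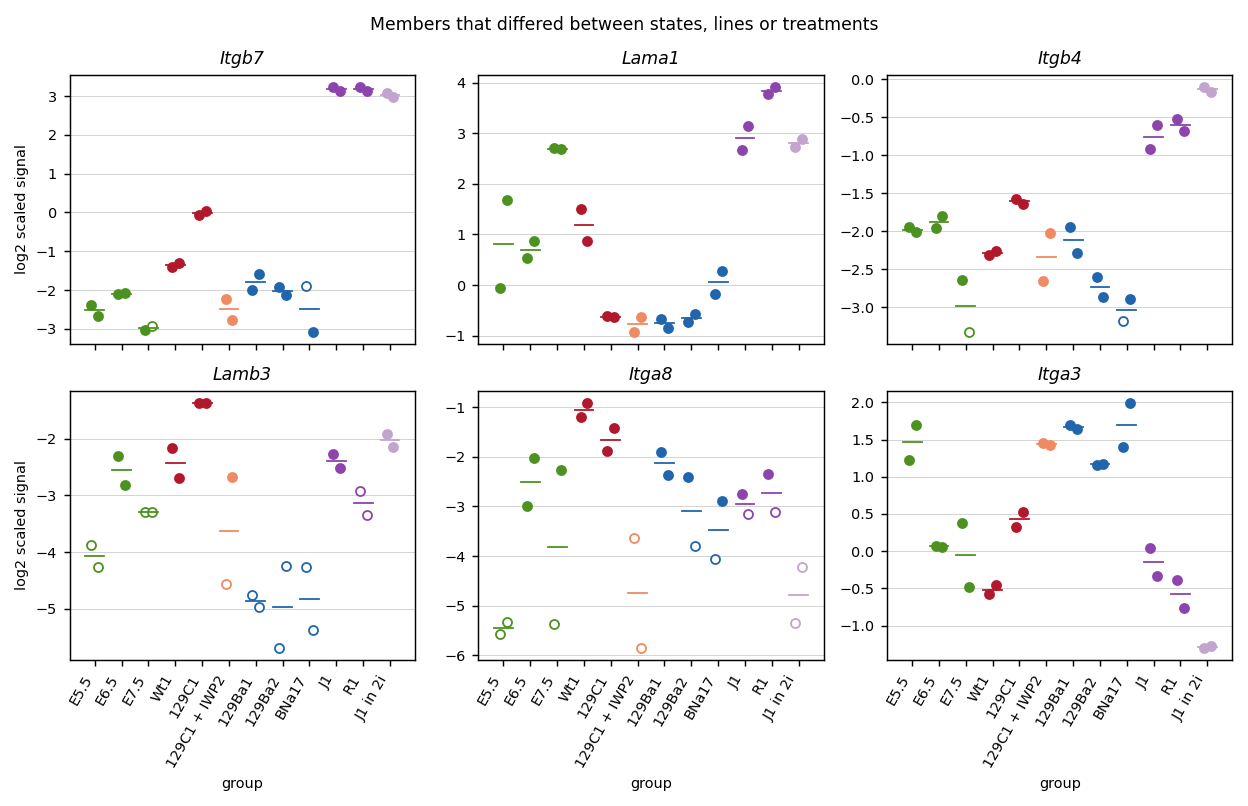
Log2 scaled signal of 6 genes by group (points are single arrays, bars are means of 2 arrays; open points are not well above background). Itgb7 is near 3 on the 6 mESC arrays and at most 0.04 elsewhere. Lamb3 is open on all 6 arrays of the Wnt inhibitor lines and on both of E5.5, of E7.5 and of R1. Itga8 is open on both arrays of IWP2-treated 129C1, of E5.5 and of J1 in 2i.

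The next comparison asked how the EpiSC lines derived under Wnt inhibition differ from the 2 lines of the original protocol, with lines as replicates. Of the 29 chains, 0 were called higher and 1 lower, with a median of 0.11. Among 14043 genes 1.57% were called, 0.534% higher and 1.04% lower, with a median of 0.07. The 1 gene was Lamb3, the beta chain of the laminin at epithelial anchoring sites. Its values were -2.17 and -2.70 in Wt1 and -1.37 in both arrays of 129C1, and from -5.69 to -4.24 in 129Ba1, 129Ba2 and BNa17. It was well above background on 4 of 4 arrays of the original protocol and 0 of 6 of the Wnt inhibitor lines. The difference was -2.98 ± 0.34, at least 3.16-fold (adjusted p = 0.0265, limma). Without Wt1 replicate 1, BNa17 replicate 2 or any of the 3 Wnt inhibitor lines it was -3.01 to -2.80 and the call was lost. With the background correction by normexp it was -0.70, and over 26 alternatives the adjusted p ran from 3.88e-05 to 0.185.

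Itga3, a laminin receptor chain, was between 1.16 and 1.99 on the Wnt inhibitor arrays and between -0.58 and 0.53 on the others, a difference of 1.55 ± 0.35 (adjusted p = 0.123, limma). Itga6 and Itgb1 differed by 0.75 ± 0.20 and 0.77 ± 0.26 and did not pass (adjusted p = 0.16 and 0.233, limma). Itga5, Itgav, Lama1, Lama5, Lamb1 and Lamc1 differed by 0.12 ± 0.30, 0.73 ± 0.45, -0.73 ± 0.58, 0.11 ± 0.30, 0.32 ± 0.31 and -0.23 ± 0.22 and did not pass.

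Line 129C1 shared a slide with all 3 Wnt inhibitor lines. Against 129C1 alone, with arrays as replicates, 7 chains were called, where 11.2% of all genes were. Lamb3 was at least 4.57-fold lower (adjusted p = 3.88e-05, limma), Itgb7 lower by -2.09 ± 0.23, Itga9 by -1.29 ± 0.25 and Itgb4 by -1.02 ± 0.19. Higher were Itgb3 (1.67 ± 0.38), Lama4 (1.20 ± 0.25) and Itga3 (1.08 ± 0.21). Between the 2 original lines themselves, which lay on 2 slides, 6 chains were called and 10.6% of all genes. Itgb7 was higher in 129C1 by 1.34 ± 0.28. Itgb3, Lama1, Lama4 and Itga1 were lower there by -2.22 ± 0.47, -1.82 ± 0.39, -1.48 ± 0.31 and -1.38 ± 0.45. Fibroblast markers moved with some of these genes: the summed level of 10 fibroblast genes was 163 to 222 in Wt1, 65.0 to 77.4 in 129C1, 277 to 343 in 129Ba1, 98.3 to 185 in 129Ba2 and 88.1 to 94.9 in BNa17. Their part in the results was not tested. In such bulk samples, fewer cells of a type and less RNA per cell cannot be told apart.

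Markers of definitive endoderm moved with these comparisons too. The summed level of 6 endoderm genes was 42.1 to 110 on the Wt1 and 129C1 arrays and 0.276 to 0.487 on those of the Wnt inhibitor lines and of IWP2-treated 129C1. All 6 were called lower in each of the comparisons by kind of line and by treatment. Their part in the changes of integrin and laminin genes was not tested.

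IWP2 treatment of 129C1 was tested with all 24 arrays as 12 groups. Of the 29 chains 3 were called higher and 3 lower, with a median of 0.32. Among 15090 genes 3.88% were called, 1.39% higher and 2.49% lower, with a median of -0.02, so the members' share of 20.7% was above the background. The lower chains were Itgb7, Lamb3 and Itga8, and Itgb8 and Itga3 were among the higher ones.

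Itgb7 was -0.06 and 0.04 in untreated and -2.24 and -2.76 in treated cells, a difference of -2.49 ± 0.28 or 5.60-fold (adjusted p = 4.86e-05, limma). The call held in each of 15 alternatives. Lamb3 was -1.37 on both untreated arrays and -4.57 and -2.67 after treatment, where 1 of 2 arrays was well above background (-2.25 ± 0.53, adjusted p = 0.0198, limma). Itga8, an RGD-binding chain of mesenchyme, was -1.89 and -1.42 before and well above background on neither array after, at -3.63 and -5.85 (at least 3.84-fold lower, adjusted p = 0.0494, limma). Itgb8, a partner of alpha v that takes part in the activation of latent TGF-beta, was not well above background in untreated cells. It was -2.97 and -2.53 after treatment, at least 2.08-fold higher (adjusted p = 0.00841, limma). Itga3 was 0.33 and 0.53 before and 1.46 and 1.43 after (1.02 ± 0.26, adjusted p = 0.029, limma).

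Normexp background correction ended 4 of the 6 calls, those of Itga3, Itga8, Itgb8 and Lamb3, and leaving out single arrays ended 5. Itga3 was lost without any 1 of the 4 arrays (0.92 to 1.12). Itga8 was lost without treated replicate 2 or either untreated array (-3.32 to -1.97), Lamb3 without treated replicate 1 or either untreated array (-2.25 to -1.30), and Itgb8 without treated replicate 2 or untreated replicate 1 (1.11 to 1.43). Itgb1, Itga6, Itga5, Itgav, Lama1, Lama5, Lamb1 and Lamc1 differed by 0.32 ± 0.18, 0.39 ± 0.15, 0.69 ± 0.35, 0.66 ± 0.40, -0.15 ± 0.39, -0.13 ± 0.14, -0.11 ± 0.23 and -0.04 ± 0.22 and did not pass. The treated and untreated arrays of 129C1 lay on separate slides, and in their difference the slide and the treatment cannot be told apart. Line Wt1 shared the slide of the treated arrays, and against it 8 chains and 13.9% of all genes were called. Lamb3 was not called there (-1.18, adjusted p = 0.127, limma), and over its 15 alternatives for this treatment the adjusted p ran from 0.00203 to 0.185. Itga3 was higher by 1.97 ± 0.26 and Itgb8 at least 2.08-fold. Lama1, Itgb3, Itga9 and Itgb7 were lower by -1.96 ± 0.39, -1.59 ± 0.47, -1.30 ± 0.31 and -1.15 ± 0.28, and Itga8 at least 5.84-fold. In this comparison the line and the treatment cannot be told apart. Untreated 129C1, on another slide, differed from Wt1 by -1.82 in Lama1, -2.22 in Itgb3, -0.52 in Itga9 and -0.60 in Itga8. It differed by 1.34 in Itgb7, 0.95 in Itga3 and 0.64 in Itgb8. Markers of other cell types moved with the treatment as well. Of 5 neural ectoderm genes 3 were called higher and 1 lower, with a median of 2.20 and a summed level of 18.8 to 20.3 before and 24.8 to 27.0 after. Of 8 streak and mesoderm genes 3 were called lower, with a summed level of 37.3 to 40.2 before and 37.8 to 43.7 after. Their part was not tested.

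The comparison by kind of line and that by treatment share the untreated 129C1 arrays. Their values stand side by side as follows. Itgb7 differed by -1.42 and -2.49 and Itga3 by 1.55 and 1.02, in that order. Neither gene was called by kind of line, and the shared arrays tie the 2 differences of a gene together. The mean of Itgb7 was -0.01 in untreated 129C1 and -1.35 in Wt1. In 129Ba1, 129Ba2 and BNa17 it was -1.80, -2.03 and -2.48. Among the ligands of alpha v integrins, vitronectin (Vtn) was lower by -4.93 ± 0.31 in the Wnt inhibitor lines (at least 9.93-fold, adjusted p = 0.00521, limma). It was lower by -4.83 ± 0.36 after IWP2 (at least 7.58-fold, adjusted p = 1.27e-06, limma). It was the only 1 of 13 tested matrix genes called by kind of line. After IWP2, Tgfb1, whose latent form binds alpha v integrins, was lower too (-1.13 ± 0.23). Of the adaptor genes, limma called 0 of 23 by kind of line and 0 of 24 by treatment, with 4 and 2 at an unadjusted p under 0.05. Of 12 other laminin receptors and partners the syndecan Sdc4 was called, lower after IWP2 by -1 ± 0.20.

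The upstream sequences of the 3 chains lower after IWP2 are shown because they changed together in this treatment. Each is the 250 bases before a RefSeq transcription start in GRCm38.p6, written 5′ to 3′ on the gene's strand. They lie at chr15:102231936-102232185 (minus strand) for Itgb7, chr1:193301744-193301993 (plus strand) for Lamb3, which has a later start as well, and chr2:12301945-12302194 (minus strand) for Itga8.
Itgb7: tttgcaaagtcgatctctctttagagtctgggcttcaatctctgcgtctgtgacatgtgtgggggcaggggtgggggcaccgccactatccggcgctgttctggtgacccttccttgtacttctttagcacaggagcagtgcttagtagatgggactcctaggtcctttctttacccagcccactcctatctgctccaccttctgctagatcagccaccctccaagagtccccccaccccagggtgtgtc
Lamb3: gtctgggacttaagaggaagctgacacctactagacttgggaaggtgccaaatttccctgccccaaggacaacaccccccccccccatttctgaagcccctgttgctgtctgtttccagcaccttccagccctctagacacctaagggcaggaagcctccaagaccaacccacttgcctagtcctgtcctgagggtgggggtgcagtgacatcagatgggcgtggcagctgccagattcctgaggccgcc
Itga8: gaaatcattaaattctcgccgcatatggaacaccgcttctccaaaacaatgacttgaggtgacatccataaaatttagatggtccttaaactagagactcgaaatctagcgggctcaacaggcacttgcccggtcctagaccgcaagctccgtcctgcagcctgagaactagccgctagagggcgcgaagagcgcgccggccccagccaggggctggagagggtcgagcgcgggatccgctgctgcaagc
The core CTTTGAT of the binding motif of TCF and LEF factors, searched on both strands, would be in capitals. It was found in none of these 3 windows, and in 0 of the 24 windows of the 21 members that had an entry, against 3.21% of all 32851 windows of that length. The absence of these letters from a window says nothing about the factors.

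For 2i culture of J1, 1 chain was called higher and 5 lower of 29, with a median of -0.01. Among 15090 genes 13.0% were called, 6.05% higher and 7.00% lower, and the members' share was 20.7%. The lower chains were the collagen receptor chain Itga1, Itga4 (a receptor chain for fibronectin and Vcam1), Itgav, Lamb1 and Itga3, and the higher one was Itgam.

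Lamb1 was 4.24 and 4.44 in J1 and 2.65 on both arrays in 2i, lower by -1.69 ± 0.23 or 3.23-fold (adjusted p = 0.000158, limma), and its call held in each of 14 alternatives. R1, the other mESC line, had 4.76 and 4.81. The chains that Lamb1 assembles with did not pass, with Lama1 at -0.10 ± 0.39, Lama5 at 0.00 ± 0.14 and Lamc1 at 0.35 ± 0.22. Itga1 and Itga4 were well above background on both J1 arrays and on neither in 2i, at least 2.07-fold and 1.67-fold lower (adjusted p = 0.00317 and 0.0109, limma). Their second probes were well above background in neither group and differed by -0.24 and -0.12. Itga3 was 0.04 and -0.34 in J1 and -1.30 and -1.28 in 2i (-1.14 ± 0.26, adjusted p = 0.00525, limma). Itgam was higher by 1.51 ± 0.44 (adjusted p = 0.021, limma). Its other probes were higher by 1.08 and 0.69 and were well above background in 2i only. Without J1 replicate 1 Itga3 was -0.95, without J1 replicate 2 or 2i replicate 2 Itga4 was -2.07 to -2.02, and without any 1 of the 4 arrays Itgam was 1.37 to 1.64, and these calls were lost. With normexp only Lamb1 and Itgam were called.

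Itgav needs its 2 probes side by side. On the probe that represents the gene it was 0.73 and -0.47 in J1 and -1.97 and -1.76 in 2i (-1.99 ± 0.40, adjusted p = 0.00252, limma). On that probe R1, at -2.32 and -2.55, was lower than J1 by -2.56 ± 0.40, the only chain called between the 2 mESC lines, where 0.530% of all genes were. On the second probe, J1 in 2i was higher than J1 by 1.05, where 1 of 2 J1 arrays was well above background, and the group means were -3.09 in J1, -2.17 in R1 and -2.04 in 2i. With the mean of both probes the call in 2i was lost. Itga6, Itgb1 and Itga5 differed by -0.61 ± 0.15, -0.34 ± 0.18 and 0.26 ± 0.35 in 2i and were not called, Itga6 because it was below the fold minimum (adjusted p = 0.00892, limma). Of the adaptor genes, Src was at least 2.61-fold higher in 2i and Lims2 and Bcar1 were lower (-1.25 ± 0.36 and -1.01 ± 0.17), 3 of 24 tested. Markers of other cell types and states moved with 2i as well. The summed level of 6 definitive endoderm genes was 7.47 to 8.8 in J1 and 1.45 to 1.67 in 2i, and 4 were called lower. That of 6 primed epiblast genes was 283 to 284 and 106 to 111, and 4 were called lower. That of 6 parietal endoderm genes was 300 to 320 and 278 to 286, and 2 were called lower. Of 8 streak and mesoderm genes 1 was called higher and 3 lower, and of 5 neural ectoderm genes 2 and 2. Their part was not tested. The arrays of J1 and of J1 in 2i were on different slides scanned on different days, so slide and medium cannot be told apart.

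In the embryo, E6.5 was compared with E5.5 within 1 slide. Of the 29 chains 3 were called higher and 1 lower at E6.5, with a median of 0.04. Among 15090 genes 4.86% were called, 2.70% higher and 2.16% lower, with a median of 0.05. Itga3 was 1.23 and 1.70 at E5.5 and 0.07 and 0.06 at E6.5, lower by -1.40 ± 0.26 or 2.65-fold (adjusted p = 0.00336, limma), in each of 14 alternatives. Itga9, a chain that binds tenascin C and osteopontin, and Itga8 were well above background on both E6.5 arrays and neither E5.5 array. They were at least 1.48-fold and 2.15-fold higher (adjusted p = 0.000215 and 0.0467, limma), and Itga8 lost its call without any 1 of the 4 arrays (2.45 to 3.42). With normexp only Itga3 was called. Itgb1, Itga5, Itga6, Itgav, Lama1, Lama5, Lamb1 and Lamc1 differed by -0.09 ± 0.18, 0.20 ± 0.35, -0.23 ± 0.15, 0.47 ± 0.40, -0.12 ± 0.39, -0.16 ± 0.14, 0.04 ± 0.23 and 0.03 ± 0.22 and did not pass. Markers of other cell types moved over the same step. Of 8 streak and mesoderm genes 5 were called higher at E6.5, with a summed level of 43.9 to 48.7 at E5.5 and 111 to 118 at E6.5. Of 6 definitive endoderm genes 3 were called higher, with a summed level of 1.66 to 8.14 at E5.5 and 27.1 to 32.6 at E6.5. Their part was not tested.

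From E6.5 to E7.5, where the tissue is embryonic ectoderm, 3 chains were called higher and 3 lower, with a median of 0.01. Among 15090 genes 14.9% were called, 6.32% higher and 8.56% lower, and the members' share was 20.7%. Both the 3 lower chains and this share include Itga11, whose signal was too dim to measure at E6.5 and at E7.5. It was tested because cultured groups in the same fit had it well above background. Its call was lost in 7 of 12 alternatives and reversed in 1, so it is not counted here as a measured change. Of the 5 laminin alpha chains 2 were called higher and 1 lower. Lama1 was 0.53 and 0.87 at E6.5 and 2.70 and 2.69 at E7.5, higher by 2.00 ± 0.39 or 3.99-fold (adjusted p = 0.00182, limma), in each of 14 alternatives. Its 2 values at E5.5, -0.06 and 1.69, lay on both sides of those of E6.5. The E5.5 array at 1.69 had a summed level of 10 visceral endoderm genes of 85.1, and the other one 7.5. Lama4, the alpha chain of vessel and mesenchymal basement membranes, was not well above background at E5.5 or E6.5 and was -1.70 and -2.48 at E7.5 (at least 4.07-fold higher, adjusted p = 0.000152, limma). Lama3, the alpha chain of the laminin at epithelial anchoring sites, was -0.47 and -0.15 at E6.5 and -1.95 and -1.87 at E7.5 (-1.60 ± 0.20, adjusted p = 5.90e-05, limma).

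Itgb4 was -1.96 and -1.80 at E6.5 and -2.64 and -3.32 at E7.5 (-1.09 ± 0.23, adjusted p = 0.00318, limma), and -0.75 and not called without E7.5 replicate 2. Itga11 was called lower, but its values were not well above background on any of the 4 arrays and no fold is given. With normexp only Lama1 was called. Itgb1, Itga3, Itga5, Itga6, Itgav, Lama5, Lamb1 and Lamc1 differed by 0.36 ± 0.18, -0.12 ± 0.26, -0.25 ± 0.35, -0.03 ± 0.15, -0.51 ± 0.40, -0.35 ± 0.14, 0.19 ± 0.23 and 0.43 ± 0.22 and did not pass. Of 12 other laminin receptors and partners 3 were higher at E7.5 and 0 lower: the dystrophin relative Utrn (1.63 ± 0.28), dystroglycan (Dag1, 1.52 ± 0.30) and Sdc4 (1.37 ± 0.20). Visceral endoderm markers, a measure of neighbouring tissue in the dissection, had a summed level of 7.5 to 85.1 at E5.5, 17.7 to 27.4 at E6.5 and 1.45 to 2.14 at E7.5, with 2 to 3 of 10 genes well above background at E7.5. Fibroblast markers were at 14.1 to 14.9 at E7.5 and 6.08 to 6.35 at E6.5. Of 6 definitive endoderm genes 6 were called lower at E7.5. Of 8 streak and mesoderm genes 1 was called higher and 5 lower. Of 5 neural ectoderm genes 4 were called higher and 0 lower, with a median of 2.49. Their part was not tested, and the slide of E7.5 and its stage cannot be told apart.

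Cultured lines differed from the embryo in many of these genes, with far more chains higher than lower. Against E5.5 epiblast 14 chains were called higher and 1 lower in the 5 EpiSC lines, with a median of 0.99. Among 14754 genes 24.1% were called, 14.7% higher and 9.38% lower, with a median of -0.04. Against E6.5 9 were higher and 1 lower, with a median of 0.79 (22.0% of all genes, 12.9% higher and 9.06% lower, median -0.10). Against E7.5 9 were higher and 1 lower, with a median of 0.94 (17.6% of all genes, 11.4% higher and 6.15% lower, median 0.00). In the mESC lines against E5.5, 14 were higher and 2 lower, with a median of 0.98 (32.0% of all genes, 17.5% higher and 14.5% lower, median 0.06). The 3 EpiSC comparisons share the EpiSC lines, and those with E5.5 share its arrays. Cultures and embryos were on different slides, except E7.5 and J1.

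**Figure D4:**
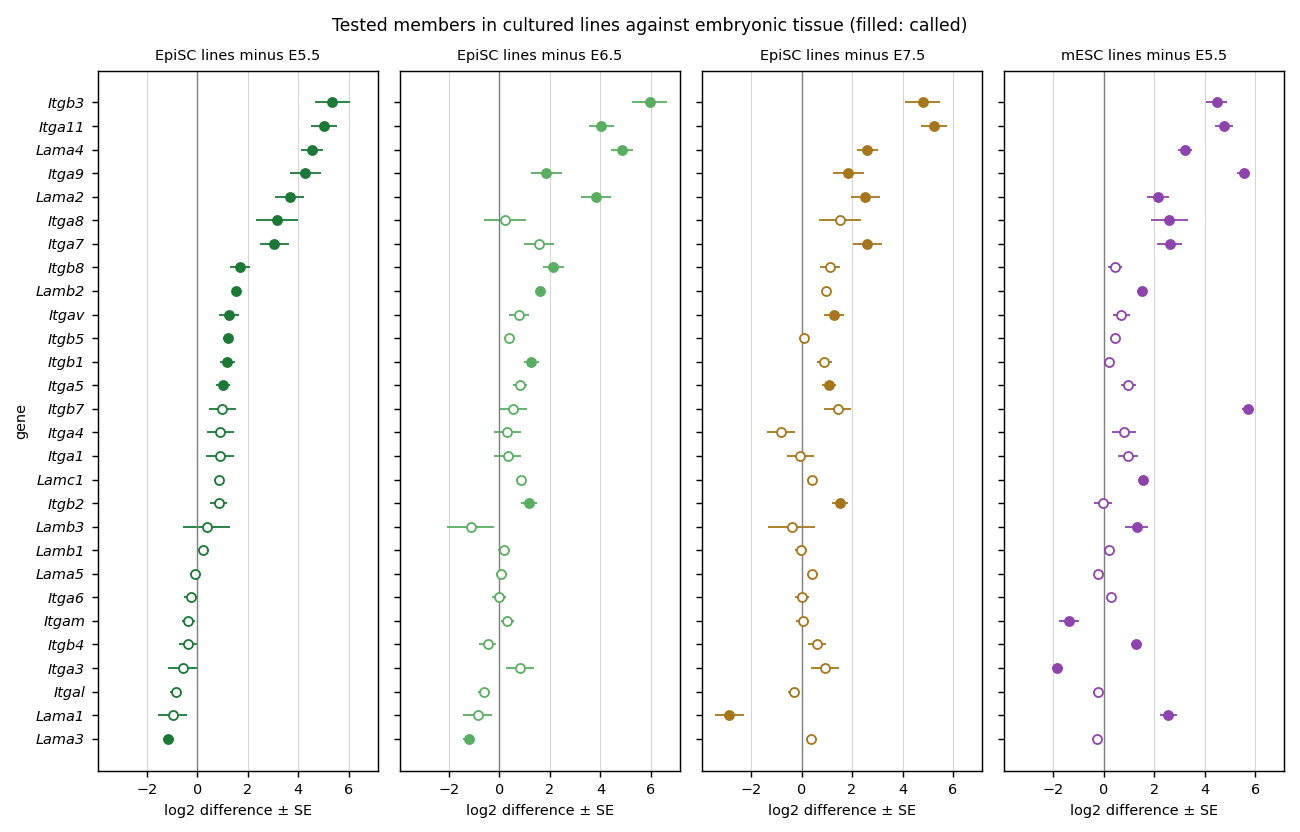
Log2 difference ± standard error of 28 of the 29 tested genes in 4 comparisons of cultured lines with embryonic tissue, ordered by the difference between EpiSC lines and E5.5; filled points are called. Itgb3, Itga11 and Lama4 are filled and right of 0 in all 4 panels, while Itga6, Lama5 and Lamb1 are open and near 0.

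Several of these chains were barely measured in the embryo. Itgb3, the beta chain of the vitronectin receptor, was well above background on all 18 culture arrays, from -3.05 to 1.36, and on 0 of 6 embryonic arrays. It was at least 8.79-fold, 13.3-fold and 8.58-fold higher in EpiSC lines than at E5.5, E6.5 and E7.5 (adjusted p = 0.000496, 0.000365 and 0.00135, limma). These values come from 1 of its probes. A second Itgb3 probe was well above background on 3 EpiSC arrays, 1 mESC array and 0 embryonic ones. On it EpiSC lines differed from the 3 stages by 0.91, 1.75 and 0.96, in that order. Itga11, a collagen receptor chain of fibroblasts, ran from -1.69 to 0.75 in culture and from -5.83 to -4.15 in the embryo. It was at least 10.3-fold, 15.6-fold and 10.1-fold higher in EpiSC lines (adjusted p = 0.000134, 0.000526 and 0.000187, limma). Lama2, the alpha chain of muscle laminin, was well above background on 14 culture arrays and 0 embryonic ones, and was at least 4.24-fold, 6.41-fold and 4.14-fold higher in EpiSC lines. Without E7.5 replicate 1 its difference from E7.5 was 2.21 and not called. Lama4 was at least 17.6-fold and 24.8-fold higher than at E5.5 and E6.5 and 6.09-fold higher than at E7.5 (adjusted p = 9.27e-05, 9.57e-05 and 0.00253, limma). The same 4 genes were called higher in mESC lines against E5.5, at least 4.85-fold for Itgb3, 8.58-fold for Itga11, 1.48-fold for Lama2 and 7.06-fold for Lama4.

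Fibroblast markers were far higher in the cultures as well. The summed level of the 10 genes was 58.9 to 343 on culture arrays and 6.08 to 14.9 on embryonic arrays, and all 10 were well above background on every culture array against 5 to 6 on embryonic ones. All 10 were called higher in EpiSC lines than at E5.5 and E6.5 and in mESC lines than at E5.5, and 9 were in EpiSC lines against E7.5, with medians of 5.44, 5.87, 4.92 and 5.03. Lum, Lox and Postn, of connective tissue, were well above background on 0 of 4 arrays of E5.5 and E6.5. Markers of other cell types differed from the embryo too. Of 10 visceral endoderm genes 8 were called lower in EpiSC lines and 9 in mESC lines than at E5.5, and 0 higher in either. Of 6 parietal endoderm genes 4 were called higher and 0 lower in EpiSC lines than at E5.5, and 4 and 2 in mESC lines. Their part was not tested. Across the 9 cultured groups, which differ in line, medium and slide, the mean level of Itgb3 correlated with the log2 fibroblast level at r = 0.96. The values were 0.84 for Itga7, 0.83 for Lama4, 0.82 for Lama2, 0.79 for Itga4, 0.75 for Itga11 and 0.73 for Itga1, and each of these 7 genes was highest in 129Ba1, the group with the highest fibroblast level. Some of these levels were near background, since Itga4 was well above it on 11 of 18 culture arrays and Lama2 and Itga1 on 14. Itgb5, Lamb1 and Itgb1 had r of 0.60, 0.60 and 0.57. Itga6, Itga9, Lama1, Itgb7 and Lamc1 had r of -0.02, -0.04, -0.34, -0.47 and -0.64. These are descriptions of 9 points on each gene's representing probe, and the part of feeder RNA in the differences was not tested.

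**Figure D5:**
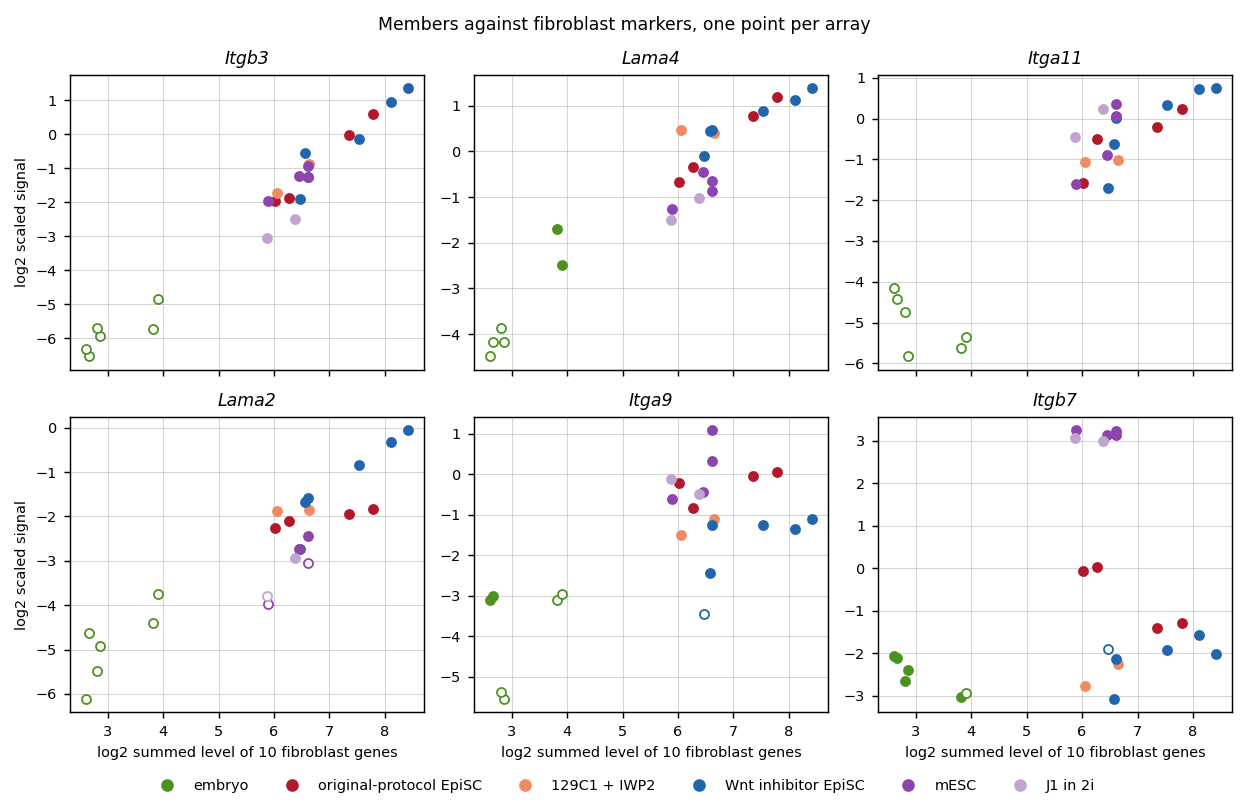
Log2 scaled signal of 6 genes against the log2 summed level of 10 fibroblast genes, with 1 point per array coloured by kind of sample; open points are not well above background. Itgb3 and Lama4 climb with the fibroblast level among the cultures, whereas Itga9 and Itgb7 vary widely at like fibroblast levels.

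Itga9 was called higher in EpiSC and mESC lines than at E5.5, and Itgb7 in mESC lines only. Their r with the fibroblast level, -0.04 and -0.47, covers the 9 cultured groups alone. The embryonic groups, where Itga9 and the fibroblast level were both lowest, were not part of it. The part of feeder RNA in the differences of these genes from the embryo was not tested. Itga9 was -5.55 and -5.39 at E5.5, -3 and -3.11 at E6.5 and not well above background at E7.5, against -3.46 to 1.08 in culture. It was at least 5.38-fold higher than at E5.5 in EpiSC lines and at least 13.1-fold in mESC lines (adjusted p = 0.000815 and 4.72e-10, limma). Itgb7 was higher by 5.70 ± 0.24 in mESC lines than at E5.5 (52.1-fold, adjusted p = 1.70e-10, limma), while in EpiSC lines it differed from E5.5 by 0.99 ± 0.53 and did not pass.

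The widely used chains differed by less. Itgb1 was higher in EpiSC lines by 1.18 ± 0.30 against E5.5, 1.27 ± 0.30 against E6.5 and 0.91 ± 0.30 against E7.5, of which the first 2 were called and were lost without either array of the embryonic stage (1.16 to 1.20 and 1.25 to 1.29). Its second probe gave 1.55, 2.25 and 1.52. Lamb2, a beta chain of adult basement membranes, was 0.30 to 1.07 on EpiSC arrays and -0.78 to -0.70 at E5.5 and E6.5, higher by 1.54 ± 0.15 and 1.59 ± 0.15, and by 1.52 ± 0.19 in mESC lines against E5.5. These 3 calls held in every alternative. Itga7 was higher by 3.05 ± 0.58 and 2.61 ± 0.58 in EpiSC lines than at E5.5 and E7.5, and without E7.5 replicate 2 the latter was 1.64 and lost. Itgb5, Itga5 and Itgav were called higher than E5.5 at 1.21 ± 0.19, 1.03 ± 0.28 and 1.26 ± 0.39. Itgb5 was lost without E5.5 replicate 2 (1.00), Itga5 in 6 and Itgav in 5 of 17 cases of leaving out an array or line (0.66 to 0.98 and 0.97 to 1.28). Itga3, Itga6, Lama5 and Lamb1 did not pass against any stage in EpiSC lines, with differences of -0.58 to 0.94, -0.25 to 0.02, -0.08 to 0.43 and -0.01 to 0.23. Lamc1 was below the fold minimum against E5.5 and E6.5 (0.87 ± 0.20 and 0.84 ± 0.20) and was called higher in mESC lines against E5.5 (1.54 ± 0.19, adjusted p = 8.31e-06, limma). Further calls in EpiSC lines were those of Itga8 and Itgb8 against E5.5, Itga9, Itgb8 and the leukocyte chain Itgb2 against E6.5, and Itga5, Itga9, Itgav and Itgb2 against E7.5, all higher. In mESC lines they were those of Itga7, Itga8, Itgb4 and Lamb3, also higher. Where the embryonic side was well above background on no array, Itga8 was at least 2.53-fold higher in EpiSC and 1.71-fold in mESC lines than at E5.5, Itgb8 at least 1.08-fold higher than at E6.5, Itga9 at least 3.61-fold higher than at E7.5, and Lamb3 at least 1.81-fold higher in mESC lines. No bound above 1 could be given for Itgb8 against E5.5. Each of these calls was lost in at least 1 alternative. The losses ran from 1 of 16 alternatives for Itga7 and Itgb4 in mESC lines to 19 of 26 for Itga9 against E7.5. Against E6.5 Itga9 was lost in 9 of 27.

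Few chains were lower in culture. Lama3 was lower in EpiSC lines by -1.14 ± 0.21 against E5.5 and -1.22 ± 0.21 against E6.5 (adjusted p = 0.00274 and 0.00228, limma), the former -0.91 and lost without E5.5 replicate 2. Its second probe was well above background on 0 of 10 EpiSC arrays, both E5.5 arrays and all mESC arrays. Between EpiSC and mESC lines the representing probe differed by -0.86 ± 0.21, below the fold minimum. Lama1 was lower in EpiSC lines than at E7.5 by -2.86 ± 0.57 (adjusted p = 0.00617, limma), with EpiSC values of -0.84 to 1.5 against 2.70 and 2.69. It was -2.85 and not called without E7.5 replicate 1. In mESC lines, Lama1 was higher than at E5.5 by 2.56 ± 0.34 (adjusted p = 1.46e-05, limma), and Itga3 and Itgam were lower by -1.83 ± 0.22 and -1.37 ± 0.38 (adjusted p = 6.64e-06 and 0.0064, limma). The Itgam call was lost without E5.5 replicate 2 (-1.07). Other probes of Itgam differed by -1.77 and -1.66 and were well above background on 0 mESC arrays.

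Within the 1 slide that held both a culture and an embryonic group, E7.5 was compared with J1. There 12 chains were called, all lower at E7.5, where 32.6% of all genes were called. Itga9, Itga11 and Itgb3 were well above background on neither E7.5 array and were at least 5.71-fold, 5.05-fold and 3.97-fold lower there. Itgb7, Itgb4 and Itga7 were well above background on 1 of 2 E7.5 arrays and differed by -6.16 ± 0.28, -2.21 ± 0.23 and -2.16 ± 0.57. Itgav, Lama4, Lama3, Lamc1 and Itga5 differed by -2.02 to -1.08. On the second probe of Itgav the order was reversed, with group means of -2.54 at E7.5 and -3.09 in J1. The second probe of Itgb3 was at -5.57 at E7.5 and -5.51 in J1, well above background in neither group.

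Of 13 other matrix genes, 7 were higher and 0 lower in EpiSC lines than at E5.5, 7 and 0 than at E6.5, and 5 and 0 than at E7.5. The largest differences from E5.5 were those of Spp1 (osteopontin, 6.82 ± 0.57), Tnc (tenascin C, at least 11-fold) and Nid1 (nidogen, 3.17 ± 0.77). In mESC lines 7 were higher and 1 lower than at E5.5. Of 24 adaptor and signalling genes 5 were higher and 1 lower than at E5.5 in EpiSC lines, where Parva, which binds Ilk, differed by 2.36 ± 0.25 and the kindlin Fermt1, well above background on 2 of 10 EpiSC arrays, by -2.19 ± 0.56. Of these 24, 4 were higher and 0 lower than at E6.5, 1 and 0 than at E7.5, and 8 and 3 in mESC lines than at E5.5. The shares of all genes called in these comparisons were 24.1%, 22.0% and 17.6% for EpiSC lines against E5.5, E6.5 and E7.5, and 32.0% for mESC lines against E5.5. Of 12 other laminin receptors and partners 4 were higher and 0 lower than at E5.5, 5 and 0 than at E6.5 and 3 and 0 than at E7.5 in EpiSC lines, and 5 and 0 in mESC lines than at E5.5. The syndecan Sdc4 differed by 3.25 ± 0.74 from E5.5 in EpiSC and by 5.27 ± 0.17 in mESC lines.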

How the data were processed

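RNA of 24 samples was hybridised to single-colour Agilent arrays. The authors deposited scanner intensity values per spot, made with Agilent Feature Extraction 10.5.1.1 per the submitters' processing notes. The log2 values of the authors' deposited table were scaled to the 75th percentile and centred on each probe's median. This was found by comparison with the scanner values (r of at least 0.999944 with the same array), and these values served as an alternative. Here the processed signal of each of 55681 probes was divided by the array's 75th percentile and put on the log2 scale. Control spots and 168 flagged probes were left out, and 0 values were saturated. Probes were named through RefSeq accessions, giving 20660 genes, of which 5476 had several probes and were represented by the brightest unflagged one. The tests used R 4.3.3 and its package limma 3.58.1. A gene entered them if some group in the fit had both of its arrays well above background. Errors are the fit's standard errors, on the log2 scale.

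Line means were the replicates where several lines were compared, and arrays were otherwise. For the cultures against the embryo, the 5 EpiSC line means were fitted with the embryonic arrays. Differences of IWP2, 2i, stage, and mESC lines against E5.5 came from 1 fit of all 24 arrays, in which the spread is that between the arrays of a group. The procedure was tested on simulated data. The alternatives were the authors' values, normexp, quantile normalisation, the filter on dim genes, the fold minimum, the mean of all probes, other fits, the replicate block, and leaving out each array or line.

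The genes, the gene lists and the alternatives were chosen with earlier results of these data known, except that normexp was set to median signals after the files were seen. Genes named throughout are Itgb1, Itga6, Itga3, Itga5, Itgav, Lama1, Lama5, Lamb1 and Lamc1, with up to 8 called members per comparison by size and up to 3 called genes of each other list. Other members named for their range or for a second probe were chosen after their values were seen. Same-numbered arrays of different groups did not deviate together, so the numbers were not taken as pairs. Of the genes chosen, 1 entered all tests and counts and is not reported here.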

Additional observations from a re-analysis of the deposited data

Results flagged for a closer look

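In 20 genes well above background on all EpiSC arrays, the mean of each of the 5 EpiSC lines was set against the other lines, and 3 genes had 1 line apart from the rest by Dixon's criterion. Chance alone marks about 1 in 20 such groups. Itgav was 0.56 in 129Ba1 and -1.04 to -0.58 in the other lines. Lamb2 was 0.60 in BNa17 and 0.88 to 0.90 in the others. Lamc1 was 4.26 in 129C1 and 3.71 to 3.86 in the others. The fibroblast level of 129Ba1, 277 to 343, was the highest of the 12 groups, and BNa17 replicate 1 had the lowest 75th percentile, 69.3. The part of either in these values was not tested.

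Lamc3, a laminin gamma chain, was outside every comparison because of 1 flagged value. Its probe was well above background on 5 arrays: both of E6.5 (-3.60 and -2.91), E5.5 replicate 1 (-3.19), Wt1 replicate 2 (-3.58) and 129Ba1 replicate 2 (-3.67).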

How the results depend on the processing

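Of the results for single members, 2975 kept their call or stayed uncalled under an alternative, 191 lost the call and 27 gained it. Direction was not compared for those that stayed uncalled, and some of these changed sign. Among the others 1 reversed, which was Itga11 between E7.5 and E6.5 (0.14 with normexp, never well above background there). Normexp on median signals, chosen after the files were seen, left 0 members called for the Wnt inhibitor lines, 2 for IWP2, 2 for EpiSC against mESC lines, 2 for 2i, 1 for E6.5 against E5.5, 1 for E7.5 against E6.5, and 9 and 5 for EpiSC lines against E5.5 and E7.5. Without the fold minimum 8 were called between EpiSC and mESC lines and 10 in 2i. With only the groups compared in the fit, 2 were called for IWP2. With arrays as replicates and the line as a random block, 3 were called for the Wnt inhibitor lines, 7 for EpiSC against mESC lines and 5 for EpiSC lines against E7.5. Against 129C1 on the shared slide 7 were called for the Wnt inhibitor lines. Leaving out 1 array or line gave 0 to 3 called for the Wnt inhibitor lines, 1 to 4 for IWP2, 2 to 6 for EpiSC against mESC lines, and 6 to 12 and 6 to 13 for EpiSC lines against E6.5 and E7.5. The cause of these shifts was not tested. Only 5 of 66 pairs of groups had same-numbered arrays whose deviations correlated above 0.1 (range -0.181 to 0.36). With the replicate number as a block, 5 were called for IWP2, 7 for 2i, 3 and 6 for the embryonic steps and 16 for mESC lines against E5.5. A group of 2 arrays and signals near background limit the precision of dim chains, and an array left alone in its group was assumed to vary like the others.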

Other observations

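Itgal, a leukocyte chain, differed by -0.63 ± 0.23 between EpiSC and mESC lines on its representing probe and did not pass (adjusted p = 0.0692, limma). Its second probe differed by -2.20 and was well above background on 1 of 10 EpiSC arrays and 4 of 4 mESC arrays.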
